A study of Mus musculus with 24 samples.

Results

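Expression of 9 genes of GDNF family and neurotrophin signalling, Gfra1, Gfra2, Gfra3, Ret, Gdnf, Nrtn, Artn, Bdnf and Ntrk2, was measured in 24 mouse melanomas that carried 4 different NRAS mutants at codon 61. The 9 members were taken by gene symbol from a table of raw read counts for 24421 genes, and all 9 passed the filter on low counts that left 17214 genes for testing. Gfra2 was chosen by its measured level, which was higher in 61L/L and 61H/H tumours, so its values in those contrasts are a description without a test. The mean of 61L/L and 61H/H against the mean of 61R/R and 61K/K is the split that Gfra2 itself showed, and it is given for the other members with that in mind.

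Tumours came from TN mice homozygous for 1 of the NRAS mutants 61R, 61K, 61L or 61H (written 61R/R and so on), with 6 tumours per genotype. In this C57BL/6 model a Tyr::CreERT2 transgene, whose promoter is active in melanocytes, removes a stop cassette from both copies of the endogenous Nras gene after 4-hydroxytamoxifen. That agent was applied to the skin at 20 mM on postnatal days 1 and 2 in all groups, and the melanomas that later arose were collected, so no group was free of mutant NRAS. The K, L and H alleles were made by editing zygotes of the 61R/R line, and the ages at collection and the ultraviolet exposure of each mouse are not in the labels. Nothing in the labels states that each tumour came from a separate mouse, and a pair of 61H/H titles (replicates 4 and 5) share a number, so the p-values here rest on how far these tumours varied, which may be partly technical.

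GDNF, neurturin and artemin, encoded by Gdnf, Nrtn and Artn, are secreted ligands that bind the co-receptors GFRα1, GFRα2 and GFRα3, encoded by Gfra1, Gfra2 and Gfra3. The co-receptors are held to the membrane by a lipid anchor and have no kinase of their own, and the ligand-bound pair signals through the receptor tyrosine kinase RET. BDNF, encoded by Bdnf, is a neurotrophin that signals through the tyrosine kinase TrkB, encoded by Ntrk2, and RET and TrkB both act through RAS and other pathways. In development these ligands and receptors serve neurons, enteric nerves, kidney and Schwann cells, and melanocytes share with Schwann cells an origin in the neural crest.

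Counted reads per library ranged from 31.9 M to 43.8 M. Levels are given as CPM, reads of a gene relative to the TMM-scaled library total in M. Differences are log2 fold changes with standard errors (SE) from edgeR's quasi-likelihood test, and a difference passed where its p, adjusted by Benjamini and Hochberg's method over all genes tested, was under 0.05. The melanocyte lineage genes Sox10 and Mitf were read in every tumour, at 110 to 1049 CPM and 21.1 to 58.7 CPM. The pigment genes were low, with Tyr between 0.0273 and 24.5 CPM and with no read of Tyrp1 in 5 libraries and of Dct in 3, while the Schwann cell and nerve gene Erbb3 lay at 122 to 1237 CPM. Library names in the table are written without a separator for 6 of the 24 tumours (3 of 61K/K and 1 of each other genotype). What this style marks is not stated, so results were also computed in the other 18, and the 6 hold too few tumours of a genotype for a comparison. The tumour titles carry a second code, which is 61K, 61L or 61P in the 61R/R tumours (2 of each) and otherwise the tumour's own genotype, so code and genotype cannot be told apart for 61H/H.

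The counts assign reads to whole genes, so they do not show which start site or splice form was used. This matters for Bdnf, which RefSeq lists with 7 separate start windows in the mouse, and for Ntrk2, whose full-length and kinase-free forms are counted as 1 gene. Of the 9 members, 6 had windows in the promoter table used here, 13 in all, and these were searched on both strands for TGACGTCA and TCACGTCA, the full cAMP response element and a variant of it, since Bdnf is a known target of the factor CREB. The only match among the 13 was in a Bdnf window, and that window is shown beside the window of the most upstream Bdnf start because Bdnf was the member called lower. Both are the 250 bases before the start, from RefSeq on GRCm38.p6, plus strand, with capitals marking the match.
Bdnf chr2:109692186-109692435: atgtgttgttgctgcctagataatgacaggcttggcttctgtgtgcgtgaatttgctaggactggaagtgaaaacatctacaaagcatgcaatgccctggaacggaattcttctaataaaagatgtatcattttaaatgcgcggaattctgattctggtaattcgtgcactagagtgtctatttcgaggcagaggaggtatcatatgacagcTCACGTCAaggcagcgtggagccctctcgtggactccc
Bdnf chr2:109674450-109674699: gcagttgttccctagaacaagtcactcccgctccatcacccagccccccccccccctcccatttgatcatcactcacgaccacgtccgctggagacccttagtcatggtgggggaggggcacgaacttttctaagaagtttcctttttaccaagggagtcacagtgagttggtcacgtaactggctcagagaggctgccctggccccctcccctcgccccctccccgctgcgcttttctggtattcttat
The match TCACGTCA began 38 bases before the start that its own window precedes, which lies downstream of the first base of the gene. That motif was in 115 of 32851 windows of the same length (0.350%), and TGACGTCA was in 508 (1.55%). The match is a description of the letters and not evidence of a bound factor, and the counts do not show whether reads came from that start.

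Compared per length, as CPM divided by the exon length in kilobases (RPKM), the co-receptors Gfra2 and Gfra1 were the most abundant members and the receptor Ret was among the least. Over the 24 tumours the mean was 63.7 ± 36.9 RPKM (SD) for Gfra2 and 60.1 ± 20.8 RPKM for Gfra1, followed by Gfra3 at 13.4 ± 14.6 RPKM and Ntrk2 at 4.92 ± 2.27 RPKM. Gdnf, Nrtn and Artn had means of 2.47 ± 2.68, 2.44 ± 2.06 and 1.24 ± 0.870 RPKM. Ret stood at 0.971 ± 0.818 RPKM and Bdnf at 0.672 ± 0.594 RPKM. Neighbours in that order from Gdnf downwards, and Gfra2 with Gfra1, did not differ beyond their spread over tumours.

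**Figure D1:**
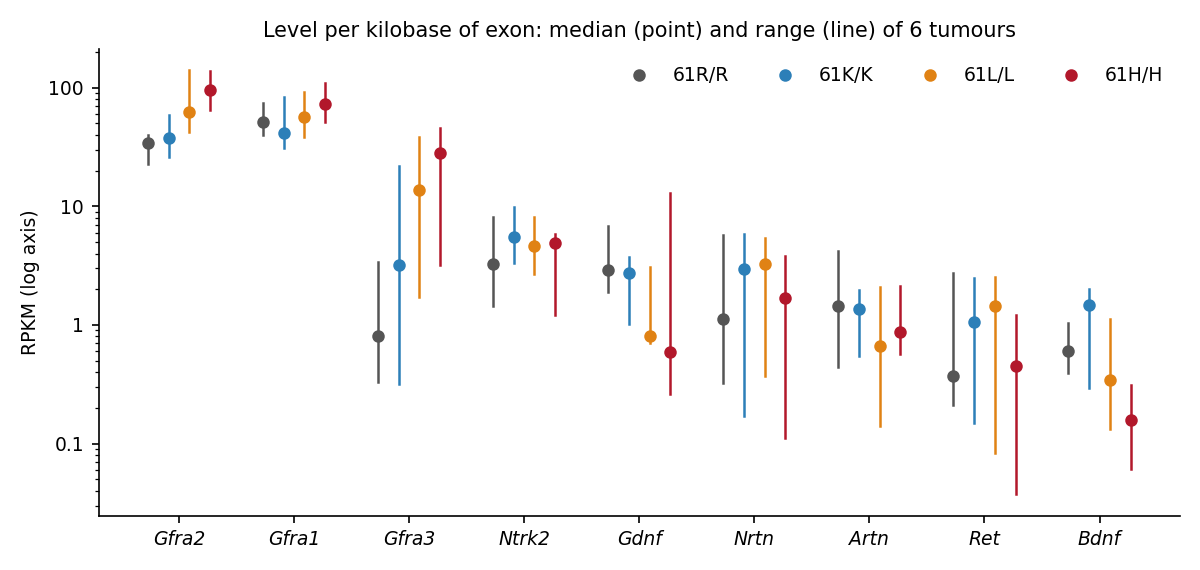
Level of each member per kilobase of exon (RPKM, log axis), with the median of 6 tumours as a point and their range as a line, for each of the 4 genotypes. Gfra2 and Gfra1 lie above the other members in every genotype, and Ret and Bdnf lie among the lowest, with means over 24 tumours of 0.971 and 0.672 RPKM.

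Genotype accounted for 61.3% of the variance of log2 CPM for Bdnf and 54.6% for Gfra3. For Gfra2 it was 68.7%, a share that follows from the choice of that gene by its level. The corresponding share was 33.7% for Gfra1, 27.6% for Gdnf, 20.9% for Artn, 16.6% for Ntrk2, 13.6% for Ret and 3.36% for Nrtn. These shares were not corrected for the number of groups, so some share is expected even where genotypes do not differ. A low share therefore neither shows nor excludes an effect of genotype. In Gfra3, Ret and Nrtn single tumours of 1 genotype differed widely, with a spread within genotypes of 1.69, 1.60 and 1.71 on the log2 scale (SD), against 0.43 for Gfra1 and 0.47 for Gfra2.

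Gfra2, the co-receptor that prefers neurturin, is at chr14:70890107-70979840 (mm10). Its lowest, median and highest levels were 80.1, 119 and 138 CPM in 61R/R tumours and 91.4, 132 and 205 CPM in 61K/K tumours. They were 149, 219 and 488 CPM in 61L/L tumours and 225, 337 and 488 CPM in 61H/H tumours. Every 61L/L and 61H/H tumour lay above every 61R/R tumour, every 61H/H tumour lay above every 61K/K tumour, and 3 of 6 61L/L tumours lay above the highest 61K/K tumour. These are the values that chose the gene. Among all genes tested, the groups failed to overlap in this direction in 0.331% for 61L/L against 61R/R, 0.593% for 61H/H against 61R/R and 1.16% for 61H/H against 61K/K.

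The estimated log2 difference in Gfra2 was 1.19 ± 0.27 (SE) for 61L/L against 61R/R, 1.65 ± 0.27 for 61H/H against 61R/R, 0.85 ± 0.27 for 61L/L against 61K/K and 1.31 ± 0.27 for 61H/H against 61K/K. Contrasts that did not choose the gene could be tested. Gfra2 was 1.26-fold higher in 61K/K than in 61R/R (log2 0.33 ± 0.26, 95% interval -0.21 to 0.88, edgeR adjusted p = 0.786) and 1.38-fold higher in 61H/H than in 61L/L (log2 0.46 ± 0.26, interval -0.09 to 1.01, adjusted p = 0.518). Neither difference passed the test, and both intervals leave room for a change.

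**Figure D2:**
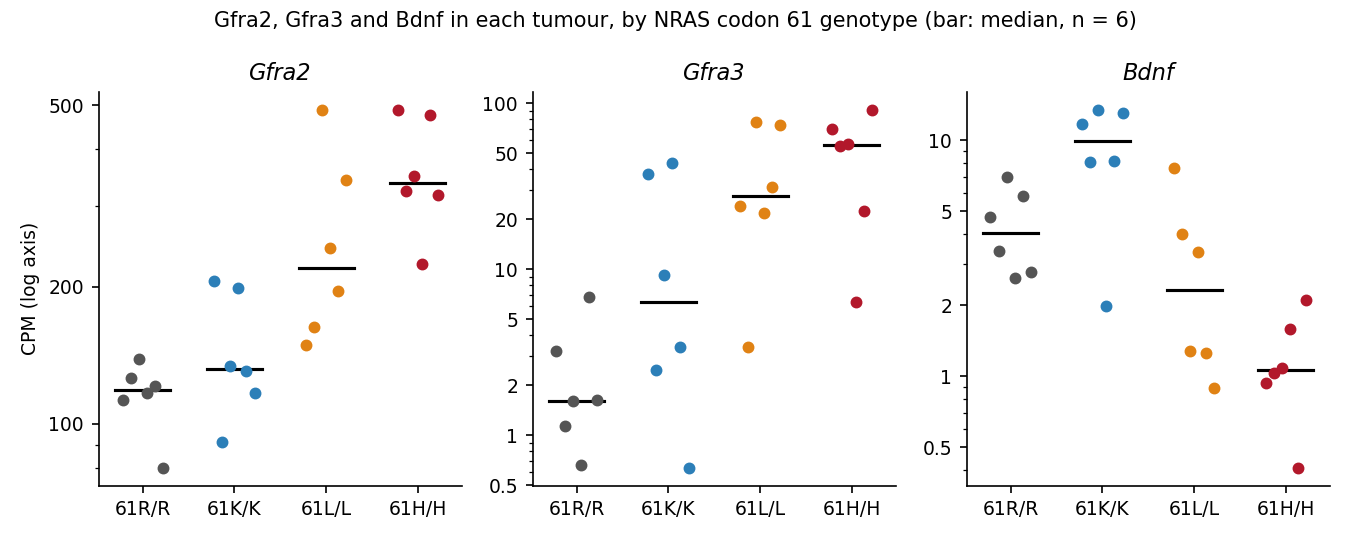
Gfra2, Gfra3 and Bdnf in every tumour (CPM, log axis), with 6 tumours in each genotype and a bar at their median. Gfra2 medians run from 119 CPM in 61R/R to 337 CPM in 61H/H, Gfra3 rises from 1.62 to 55.8 CPM, and Bdnf lies between 0.410 and 2.10 CPM in 61H/H.

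Gfra3, the co-receptor for artemin, is at chr18:34689903-34720387 and showed the widest range of the 9 members. Its lowest, median and highest levels were 0.661, 1.62 and 6.81 CPM in 61R/R tumours and 0.637, 6.34 and 43.5 CPM in 61K/K tumours. They were 3.41, 27.5 and 76.7 CPM in 61L/L tumours and 6.33, 55.8 and 91.1 CPM in 61H/H tumours. The 61H/H and 61R/R tumours overlapped in a single 61H/H tumour (replicate 4), and the 61K/K tumours fell on either side, with 3 of 6 above the highest 61R/R tumour. Between the lowest and highest of the 24 tumours the level differed 143-fold. Among tumours whose titles carry the code 61L, the 61R/R pair had 0.661 and 6.81 CPM, and 5 of 6 61L/L tumours lay above both.

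Gfra3 was the 1 member of 8 tested that passed in 61H/H against 61R/R, where it was 20.0-fold higher (log2 4.32 ± 0.96, 95% interval 2.34 to 6.31, adjusted p = 0.0242). In that comparison 2.02% of all genes passed, 1.26% as higher and 0.761% as lower. Leaving out 61R/R replicate 1, 2 or 3 or 61H/H replicate 1 or 2 ended the call, with adjusted p up to 0.0655 over the 24 omissions, and in the 18 libraries of 1 name style the log2 difference was 3.93 with adjusted p = 0.0719. In limma-voom it did not pass either (adjusted p = 0.0919). Against 61K/K the 61H/H level was 3.12-fold higher, which did not pass (log2 1.64 ± 0.85, adjusted p = 0.225). In 61L/L against 61R/R the estimate was 15.3-fold (log2 3.94 ± 0.94) without passing (adjusted p = 0.387), in a comparison where 0 genes passed.

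With the 61L/L and 61H/H means set against those of 61R/R and 61K/K, Gfra3 was 6.91-fold higher (log2 2.79 ± 0.63, adjusted p = 0.0135), and 6 of the 12 61L/L and 61H/H tumours lay above every 61R/R and 61K/K tumour. Gfra3 and Bdnf, in opposite directions, were the 2 of 8 tested members past the threshold there, against 5.30% of all genes, 2.67% higher and 2.64% lower. In the 18 libraries of 1 name style Gfra3 did not pass (log2 2.44, adjusted p = 0.117), and it passed in each of the 24 fits that left out 1 tumour. Gfra3 also followed Gfra2 from tumour to tumour, with Pearson r = 0.82 and Spearman rho = 0.84 over 24 tumours and r = 0.63 after genotype means were subtracted. The 2 genes are therefore not separate observations of the same split.

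Gfra1, the co-receptor that prefers GDNF, is at chr19:58235581-58455398 and varied far less. It was read at 188, 244 and 355 CPM (lowest, median, highest) in 61R/R, at 148, 196 and 396 CPM in 61K/K, at 184, 269 and 440 CPM in 61L/L and at 244, 344 and 526 CPM in 61H/H. All 4 groups overlapped, with 2 of 6 61H/H tumours above every 61K/K tumour. The level in 61H/H was 1.67-fold that of 61K/K (log2 0.74 ± 0.25, 95% interval 0.23 to 1.25), just short of the threshold (adjusted p = 0.0610), and 1.42-fold that of 61R/R (log2 0.51 ± 0.25, adjusted p = 0.317). The 61H/H against 61K/K difference passed in DESeq2 (adjusted p = 0.0317), in limma-voom (0.0494) and with the name style as a covariate (0.0347).

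Among the ligands, Bdnf was lower in 61H/H tumours. The gene is at chr2:109674700-109727043, and its lowest, median and highest levels were 2.62, 4.06 and 6.97 CPM in 61R/R tumours and 1.99, 9.96 and 13.4 CPM in 61K/K tumours. They were 0.893, 2.32 and 7.60 CPM in 61L/L tumours and 0.410, 1.06 and 2.10 CPM in 61H/H tumours. All 6 61H/H tumours lay below all 6 61R/R tumours, which 0.587% of all genes also did, and below 5 of 6 61K/K tumours, the exception being 61K/K replicate 4.

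Bdnf was the 1 of 8 tested members that passed in 61H/H against 61K/K, where 9.36% of all genes passed, 4.29% as higher and 5.07% as lower. Its level in 61H/H was 0.127 of that in 61K/K (log2 -2.98 ± 0.53, 95% interval -4.07 to -1.88, adjusted p = 0.00490). The call held under all 8 other ways of processing and in all 24 fits that left out 1 tumour, with log2 differences between -3.26 and -2.82 among the latter. Against 61R/R the level was 0.273-fold (log2 -1.87 ± 0.51, adjusted p = 0.0546), which missed the threshold although the groups did not overlap, and in 3 other ways of processing it passed. The difference between 61H/H and 61L/L did not pass (log2 -1.36 ± 0.50, adjusted p = 0.354), nor did 61L/L against 61K/K (log2 -1.62 ± 0.50, adjusted p = 0.513).

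For the mean of 61L/L and 61H/H, Bdnf was 0.298 of its level in 61R/R and 61K/K (log2 -1.74 ± 0.36, adjusted p = 0.00897), and 8 of 12 61L/L and 61H/H tumours lay below every 61R/R and 61K/K tumour. In the 18 libraries of 1 name style the log2 difference was -1.37 with adjusted p = 0.0900. Leukocyte genes moved in the same direction as Bdnf. The summed level of 10 leukocyte markers was 508 to 1213 CPM in 61R/R, 527 to 2028 CPM in 61K/K, 400 to 913 CPM in 61L/L and 279 to 506 CPM in 61H/H, and 6 of the 10 markers (Ptprc, Cd4, Csf1r, Itgam, Itgax and Cd74) fell in 61H/H against 61K/K while none rose. The T cell marker Cd3e had no read in 1 library. Over the 24 tumours Bdnf followed that sum with r = 0.74 and rho = 0.73 (permutation p adjusted over 81 relations = 0.00081 for both), and within genotypes r was 0.42. This permutation moved tumours across genotypes, so its p can reflect a genotype difference that Bdnf and the sum share. In the 18 libraries of 1 name style r was 0.76, and without the 2 tumours farthest from the median it was 0.64. Bdnf also ran against the melanocyte sum (r = -0.67, rho = -0.64, adjusted permutation p = 0.00435 and 0.00948, within genotypes -0.44) and the Schwann cell and nerve sum (r = -0.54, rho = -0.55, adjusted permutation p = 0.0344 and 0.0376, within genotypes -0.13). Restricted to the 18 libraries of 1 name style, these were -0.67 and -0.66, and without the 2 farthest tumours -0.60 and -0.41. The part of these cells in the Bdnf difference was not tested, and in bulk tumours fewer cells of a type and less RNA per cell cannot be told apart.

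Gdnf showed lower medians in 61L/L and 61H/H tumours and 1 tumour that stood far from the rest. Lowest, median and highest were 9.15, 14.03 and 33.3 CPM in 61R/R, 4.93, 13.5 and 18.1 CPM in 61K/K, 3.41, 3.96 and 15.1 CPM in 61L/L and 1.28, 2.86 and 62.8 CPM in 61H/H. The 61H/H value of 62.8 CPM belongs to replicate 4, and the other 5 tumours of that genotype lay at or below 5.01 CPM, under every 61R/R tumour. With all tumours in the fit, the 61H/H level was 0.788 of that in 61R/R (log2 -0.34 ± 0.75, adjusted p = 0.887) and 1.10 times that in 61K/K (log2 0.13 ± 0.75, adjusted p = 0.923).

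Without 61H/H replicate 4, a tumour left out after its value was seen, the log2 difference in Gdnf was -2.56 against 61R/R (adjusted p = 0.00652) and -2.08 against 61K/K (adjusted p = 0.0101), both past the threshold. The same omission gave -1.62 for 61L/L and 61H/H together against 61R/R and 61K/K (adjusted p = 0.00541). That tumour also had the lowest Gfra2, Gfra3 and Ntrk2 levels of its genotype, at 225, 6.33 and 17.1 CPM. The summed level of 10 neuron markers followed Gdnf with r = 0.69 (rho = 0.65, adjusted permutation p = 0.00216 and 0.00948), and r was 0.66 within genotypes. That sum is made up of Tubb3, Nefl and Nefm, while the defining neuron gene Snap25 had no read in 18 libraries.

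Nrtn and Artn were low in every genotype and no difference between genotypes passed. Nrtn was read at 0.114 to 6.02 CPM over the 24 tumours, with medians of 1.16 CPM in 61R/R, 3.03 CPM in 61K/K, 3.35 CPM in 61L/L and 1.73 CPM in 61H/H. Artn was read at 0.341 to 10.1 CPM, with medians of 3.52, 3.29, 1.59 and 2.11 CPM in the same order. For Artn the largest estimate was in 61L/L against 61R/R (log2 -1.13 ± 0.55, 95% interval -2.26 to 0.01, adjusted p = 0.896). For Nrtn every interval spanned 0 by a wide margin, as in 61H/H against 61K/K (log2 -0.83 ± 0.87, interval -2.63 to 0.97, adjusted p = 0.574). Reads behind single Nrtn values ran from 4 to 207, so these levels carry large counting error.

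**Figure D3:**
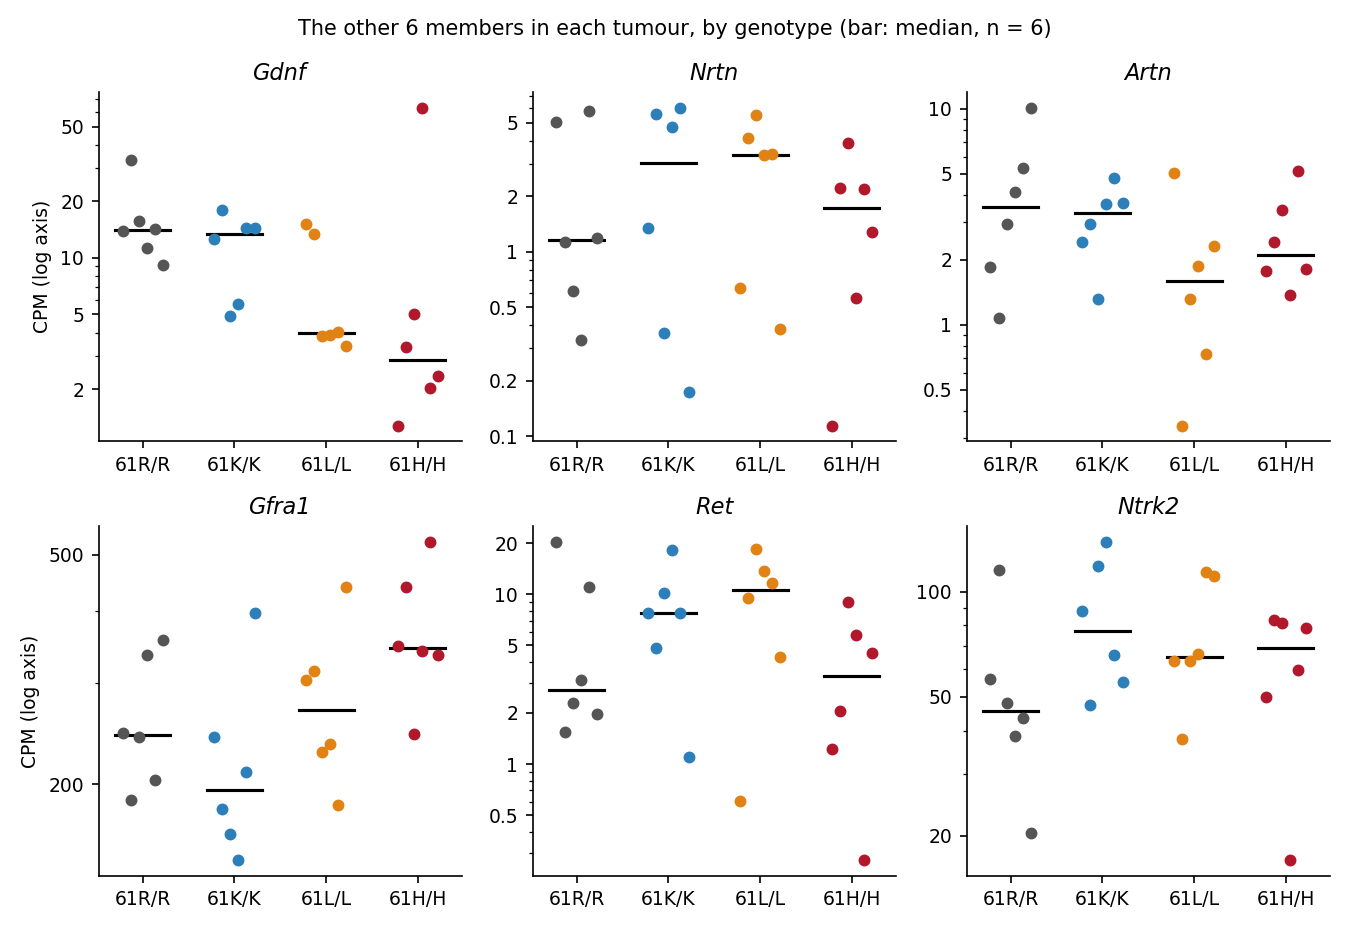
The 3 GDNF family ligands, Gfra1, Ret and Ntrk2 in every tumour (CPM, log axis), with 6 tumours in each genotype and a bar at their median. The groups overlap in each panel, and 61H/H replicate 4 stands at 62.8 CPM of Gdnf above the other 61H/H tumours, which lie at or below 5.01 CPM.

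No difference between genotypes in the receptors passed the test. Ret, the kinase that all 3 co-receptors signal through, is at chr6:118151748-118197744 and was read at 1.55, 2.72 and 20.3 CPM (lowest, median, highest) in 61R/R and 1.10, 7.75 and 18.3 CPM in 61K/K. It was read at 0.608, 10.6 and 18.5 CPM in 61L/L and 0.273, 3.28 and 8.99 CPM in 61H/H. The groups overlapped throughout, and the largest estimate was 61H/H against 61L/L (log2 -1.35 ± 0.80, 95% interval -3.01 to 0.31, adjusted p = 0.532). Genes on the same chromosome as Ret had a median log2 difference of 0.31 in 61H/H against 61R/R (878 genes), against 0.01 over all genes tested.

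Ntrk2, the TrkB receptor, is at chr13:58806569-59133970 and was the most abundant of the kinase receptors among the members. Its lowest, median and highest levels were 20.3, 45.6 and 115 CPM in 61R/R, 47.2, 76.9 and 139 CPM in 61K/K, 37.8, 64.9 and 114 CPM in 61L/L and 17.1, 69.0 and 82.7 CPM in 61H/H. All groups overlapped. The level in 61K/K was 1.60-fold that of 61R/R (log2 0.68 ± 0.39, 95% interval -0.13 to 1.48, adjusted p = 0.774), and the other estimates were smaller. Bdnf and its receptor did not vary together, with r = -0.03 over 24 tumours (permutation p = 0.879).

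**Figure D4:**
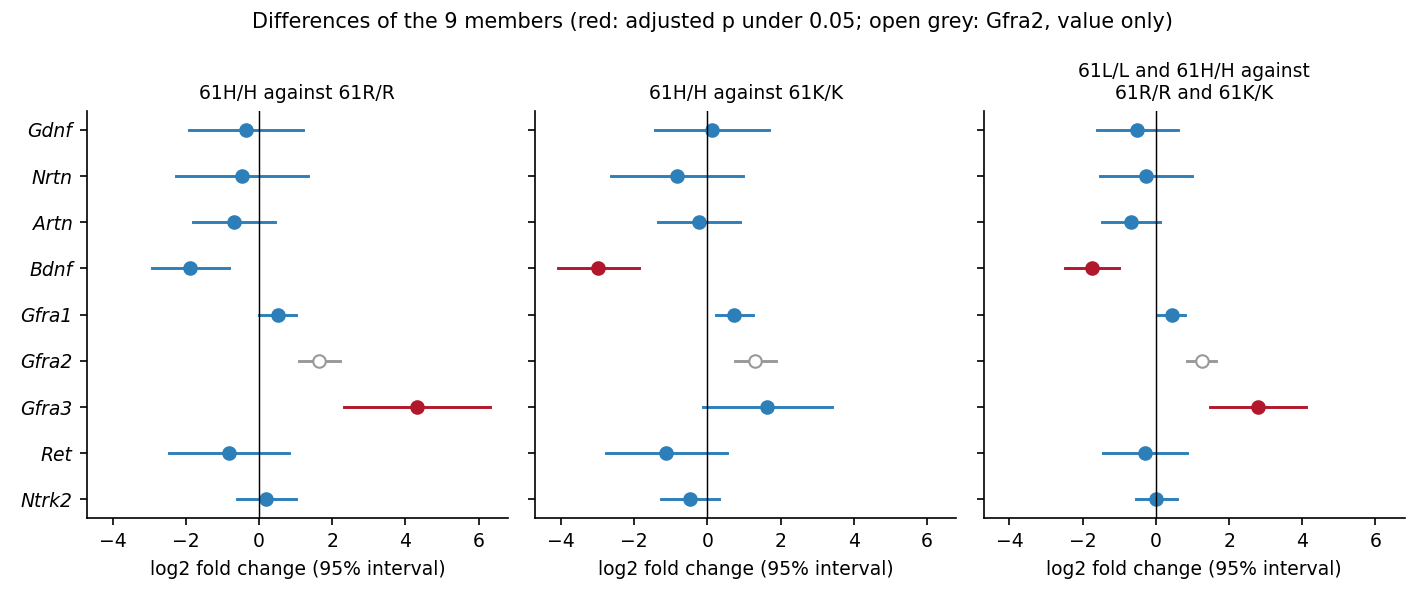
Log2 fold changes of the 9 members with 95% intervals in 3 contrasts, in red where the edgeR adjusted p was under 0.05 and in open grey for Gfra2, which was not tested there. Gfra3 lies to the right and Bdnf to the left of 0 in all 3 panels, with Gfra3 at 4.32 in 61H/H against 61R/R and Bdnf at -2.98 in 61H/H against 61K/K.

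In the 4 remaining pairs of genotypes, 61K/K against 61R/R, 61L/L against 61R/R, 61H/H against 61L/L and 61L/L against 61K/K, 0 of the tested members passed by edgeR, and neither did any of the 17214 genes (0%). At an unadjusted p under 0.05 there were 887, 956, 1931 and 1393 genes in these comparisons, and DESeq2 called 3, 34, 43 and 40. In DESeq2 the call of Gfra3 in 61L/L against 61R/R was gained (log2 3.92, adjusted p = 0.00153). Among the tested members, edgeR's unadjusted p was under 0.05 for Gfra3 (0.00655) and Bdnf (0.0360) in 61K/K against 61R/R, for Gfra3 in 61L/L against 61R/R (0.000384), and for Bdnf in 61H/H against 61L/L (0.0127) and 61L/L against 61K/K (0.00387). In 61H/H against 61K/K the median log2 difference of the 8 tested members was -0.36, against 0.01 over all genes tested, and in 61H/H against 61R/R it was -0.40, against 0.01. These medians leave out Gfra2 (log2 1.31 and 1.65) and do not describe a shift of all members. The estimates were higher for Gfra1 and Gfra3 and lower for Ret, Nrtn, Artn and Bdnf in both, while Gdnf and Ntrk2 changed sign. The comparisons share groups, so their values are not independent of each other.

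Relations between ligand, co-receptor and receptor were computed for 8 pairs of known partners over the 24 tumours. Gfra1 and Ret were the only pair with an adjusted p under 0.05, and they ran in opposite directions (r = -0.64, permutation p = 0.0008, adjusted 0.0064; rho = -0.62, p = 0.0018, adjusted 0.0146). The value was -0.57 without the 2 tumours farthest from the median of Gfra1, -0.66 in the 18 libraries of 1 name style, -0.61 in the other 6 and -0.62 within genotypes. The pairs Gdnf with Gfra1, Gdnf with Ret, Nrtn with Gfra2 and Artn with Gfra3 had r of -0.25, 0.07, -0.04 and -0.15, and none passed (each adjusted p = 0.879). Gfra2 with Ret (r = -0.08) and Gfra3 with Ret (r = 0.17) did not pass either.

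All 36 pairs of members, a wider set chosen after those 8 had been seen, were also computed. P was adjusted over all 36, so the Gfra2 pairs, shaped by its choice, entered the adjustment of the others. Of the 28 pairs without Gfra2, 5 had an adjusted p under 0.05. These were Gfra1 with Ret, Gfra3 with Gdnf (r = -0.70, rho = -0.73, adjusted permutation p = 0.00216 and 0.0036, within genotypes -0.56), Gfra3 with Bdnf (r = -0.54, rho = -0.57, adjusted p = 0.0308 and 0.0195, within genotypes -0.30), Ret with Nrtn (r = 0.56, rho = 0.61, adjusted p = 0.0257 and 0.00936, within genotypes 0.54) and Gdnf with Bdnf (r = 0.57, rho = 0.65, adjusted p = 0.0257 and 0.00619, within genotypes 0.43). In the 18 libraries of 1 name style the last 4 had r of -0.70, -0.57, 0.62 and 0.64. Without the 2 tumours farthest from the median of the first gene, r was -0.74, -0.54, 0.70 and 0.71. Gfra2 ran against Gdnf with r = -0.70 and against Bdnf with r = -0.75, given as values because the choice of Gfra2 shaped them.

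Markers of other cells moved with several members. Of 81 relations between the 9 members and the summed levels of 9 marker lists, computed after the members' values were seen, 16 had an adjusted p under 0.05. Among the 16 were Gfra2 with the leukocyte sum and with the Schwann cell and nerve sum. The choice of Gfra2 shaped both, and its relations entered the adjustment over all 81. Ret and Nrtn were the members that ran with the 9 keratinocyte markers, whose sum fell into 6 tumours between 3.61 and 12.7 CPM and 18 tumours between 68.2 and 8585 CPM. In the 6 tumours Ret had a median of 1.16 CPM and Nrtn of 0.498 CPM. In the 18 tumours Ret had a median of 7.75 CPM and followed the sum with r = 0.65 (permutation p = 0.00292, rho = 0.72), and Nrtn had a median of 3.35 CPM with r = 0.87 (permutation p = 2e-05, rho = 0.89). In the 6 tumours r was 0.77 for Ret (rho = 0.26, exact permutation p = 0.167) and -0.45 for Nrtn (rho = -0.43, exact permutation p = 0.35), too few to settle a relation. The sets were split at a gap in the sum after it was seen. Each genotype had at least 1 tumour in both sets. Ret also ran with the 6 adipocyte markers (r = 0.70, rho = 0.71, adjusted permutation p = 0.00211 and 0.00216, within genotypes 0.65) and the 8 skeletal muscle markers (r = 0.58, rho = 0.53, adjusted permutation p = 0.0189 and 0.0434, within genotypes 0.63). Restricted to the 18 libraries of 1 name style, these were 0.71 and 0.70, and without the 2 farthest tumours 0.75 and 0.52.

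Gfra1 ran with the 10 Schwann cell and nerve markers (r = 0.76, rho = 0.75, adjusted permutation p = 0.00101 and 0.00113, within genotypes 0.65) and with the 10 melanocyte markers (r = 0.65, rho = 0.61, adjusted p = 0.00478 and 0.0131, within genotypes 0.47). Restricted to the 18 libraries of 1 name style, these were 0.75 and 0.78, and without the 2 farthest tumours 0.69 and 0.54. The melanocyte sum is made up largely of Sox10, with a mean of 400 CPM, and while the sum had a mean of 596 CPM in 61R/R and 777 CPM in 61H/H, the median log2 difference of its 10 genes between those genotypes was -0.91. The Schwann cell and nerve sum was 1039 to 2259 CPM in 61R/R, 988 to 2453 CPM in 61K/K, 1265 to 2736 CPM in 61L/L and 2029 to 3674 CPM in 61H/H. Ret ran against the same sum (r = -0.65, rho = -0.65, adjusted permutation p = 0.00478 and 0.00856, within genotypes -0.64). Gfra3 ran against the neuron sum (r = -0.67, rho = -0.73, adjusted permutation p = 0.00243 and 0.00081, within genotypes -0.72). Gfra2 ran against the leukocyte sum with r = -0.64 and with the Schwann cell and nerve sum with r = 0.57, and within genotypes these were -0.20 and 0.20. Gfra1 ran against the adipocyte and leukocyte sums, with r of -0.58 and -0.55 (rho = -0.59 and -0.51, adjusted permutation p = 0.0189 and 0.0300 for r, and 0.0207 and 0.0508 for rho) and within genotypes of -0.47 and -0.23. Restricted to the 18 libraries of 1 name style, these were -0.50 and -0.67, and without the 2 farthest tumours -0.46 and -0.36. The part of these cells in the members' differences was not tested.

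**Figure D5:**
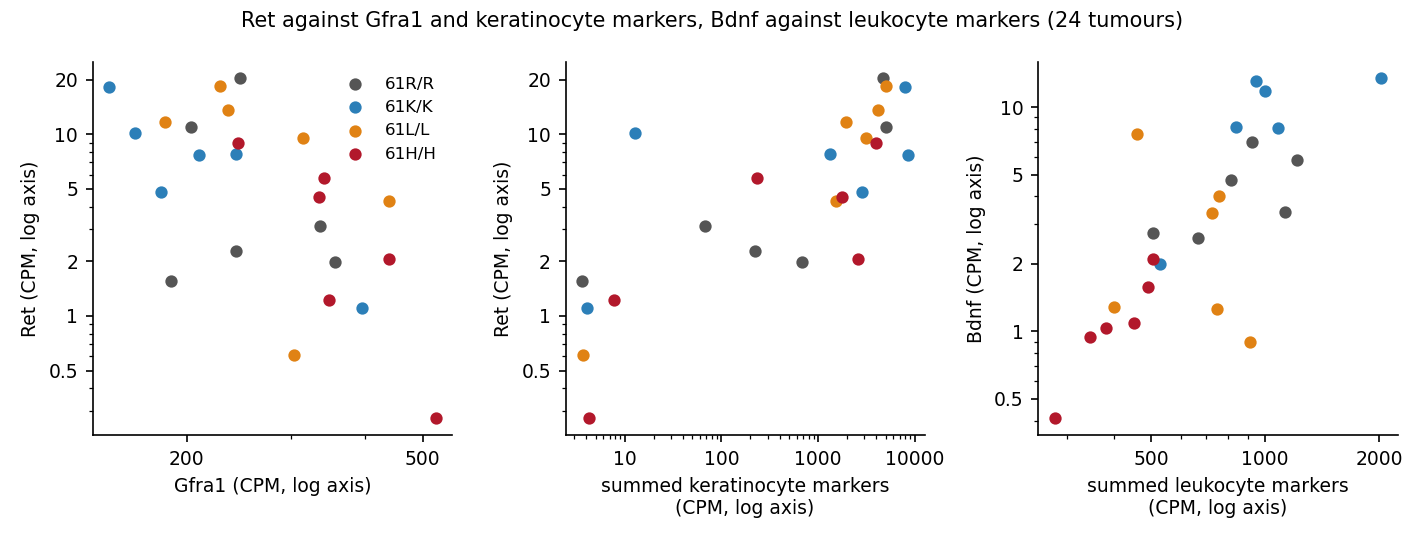
Ret against Gfra1, Ret against the summed level of 9 keratinocyte markers and Bdnf against the summed level of 10 leukocyte markers, all in CPM on log axes, with 1 point for each of the 24 tumours coloured by genotype. Ret falls as Gfra1 rises (r = -0.64), 6 tumours have keratinocyte sums of at most 12.7 CPM, and 61H/H tumours sit at the low end of both leukocyte markers and Bdnf.

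The genes whose levels over the 24 tumours were most like those of Gfra2, out of 14974 with a mean of at least 1 CPM, were Deptor (r = 0.94), Mrgprf (r = 0.90), Aebp2 (r = 0.90), Kcna1 (r = 0.89), Foxf1 (r = 0.89), Cnksr2 (r = 0.87), Olfml2a (r = 0.87) and Mir568 (r = 0.87). Deptor, which encodes a protein that binds and inhibits mTOR, had means of 111, 140, 286 and 413 CPM in the order 61R/R, 61K/K, 61L/L, then 61H/H. Kcna1, a voltage-gated potassium channel gene, had means of 319, 501, 1360 and 2263 CPM. After genotype means were subtracted, r with Gfra2 was 0.82 for Deptor and 0.64 for Kcna1. For Gfra3 the closest genes were Olfml2a (r = 0.95), Col4a4 (r = 0.89) and Matn4 (r = 0.88), so Olfml2a, which encodes an extracellular olfactomedin-domain protein, stood among the closest of both co-receptors. These likenesses are descriptions over tumours that share the same genotypes.

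For the other members the 3 closest genes were as follows. Gfra1 was closest to Lmo4, Fads2 and Ppp2r2a (r = 0.85, 0.85 and 0.83), and Ret to Irx2, Pik3cb and Sh3bgrl2 (r = 0.92, 0.92 and 0.91). Gdnf was closest to Smim3, Pfkfb4 and Sema7a (r = 0.94, 0.91 and 0.89), Nrtn to A430088P11Rik, Wnt7b and Scnn1a (r = 0.92, 0.91 and 0.89) and Artn to Pou3f1, C530008M17Rik and Grik2 (r = 0.82, 0.82 and 0.79). Bdnf was closest to Pdpn, Il33 and Ugcg (r = 0.91, 0.90 and 0.89), and Ntrk2 to Tmem204, Dcn and Fgl2 (r = 0.85, 0.82 and 0.79). Scnn1a encodes an epithelial sodium channel subunit, Il33 a cytokine and Dcn the fibroblast proteoglycan decorin.

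Of 40 further genes of the same pathways, 39 could be tested, and 5 passed in 61H/H against 61K/K (12.8%), where 9.36% of all genes passed, so the share is near that of all genes. Among 6 other GDNF family ligands and receptors, Ncam1, a cell adhesion molecule that can also bind GDNF, rose in 61H/H against 61K/K (log2 1.05 ± 0.31, adjusted p = 0.0376), from 239 ± 92.2 CPM (SD, n = 6) to 494 ± 185 CPM. The ligand gene Pspn stayed at or below 0.628 CPM, and Gfral, the GDF15 receptor gene, had reads in 1 library and was not tested. In 61H/H against 61R/R 0 of the 39 genes passed in edgeR, 9 had an unadjusted p under 0.05 and DESeq2 called 2.

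Among 8 other neurotrophins and receptors, Ngfr and Sort1 rose in 61H/H against 61K/K. Ngfr, the low-affinity p75 receptor shared by the neurotrophins, went from 231 ± 107 CPM to 560 ± 110 CPM (SD, n = 6; log2 1.28 ± 0.25, edgeR adjusted p = 0.00643). It also rose in 61L/L and 61H/H against 61R/R and 61K/K (log2 0.72, adjusted p = 0.0219), the split that Gfra2 itself showed. There Ngfr was the 1 of 39 tested pathway genes that passed (2.56%), below the 5.30% of all genes. Sort1, the sortilin gene whose product binds p75 and sorts BDNF, went from 136 ± 30.5 CPM to 287 ± 115 CPM (log2 1.08 ± 0.23, adjusted p = 0.00907). Ntrk3, which encodes TrkC, had means of 11.1 CPM in 61K/K and 35.6 CPM in 61H/H without passing (log2 1.68 ± 0.64, adjusted p = 0.0942). The ligand gene Ntf3 had a mean of 0.556 CPM over all tumours and did not pass.

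Among 19 adaptors of RET and TRK receptors, Gab1 rose and Sh2b2 fell in 61H/H against 61K/K, and the other 17 did not pass. Gab1, a docking protein for growth factor receptors, went from 100.0 ± 22.3 CPM to 207 ± 83.6 CPM (SD, n = 6; log2 1.05 ± 0.23, edgeR adjusted p = 0.00907), and Sh2b2, an SH2 domain adaptor, from 8.59 ± 2.81 CPM to 4.06 ± 1.35 CPM (log2 -1.08 ± 0.27, adjusted p = 0.0157). In the 18 libraries of 1 name style Ncam1, Sort1, Gab1 and Sh2b2 no longer passed, with adjusted p of 0.0954, 0.0615, 0.0969 and 0.0759. In a fit of 61H/H and 61K/K tumours alone Ncam1 and Gab1 did not pass (adjusted p = 0.0685 and 0.0569). Ncam1 also lost its call without any 1 of 61K/K replicates 2, 3, 4 or 5, 61L/L replicates 3 or 4 or 61H/H replicates 1, 2, 5 or 6, with adjusted p up to 0.134. Of 7 genes known to be induced by RET in the mouse ureteric bud, 0 passed by edgeR in any contrast, and the median log2 difference of the list was -0.24 in 61H/H against 61R/R and 0.03 in 61H/H against 61K/K, where 1 had an unadjusted p under 0.05 and DESeq2 called 1. In 61H/H against 61R/R 2 of the 7 had an unadjusted p under 0.05 and DESeq2 called 1. RET acts through RAS, and every tumour carried mutant NRAS, so the levels of these genes cannot report RET activity here.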

How the data were processed

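RNA was sequenced from 24 melanomas of TN mice, 6 for each of 4 NRAS genotypes, grouped by the genotype in their labels. Per the labels, tumour RNA was depleted of ribosomal RNA and made into stranded total RNA libraries, although the labels also name polyA RNA. The study's methods name alignment with STAR, and mm10, featureCounts and Picard 2.17.11 are named in the submitters' processing notes. The authors deposited raw read counts per gene, not normalized. The strand setting of the counting was not found, so reads of overlapping or antisense genes cannot be told apart.

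From these counts, TMM-scaled CPM and RPKM (with the table's exon lengths) were computed, log2 CPM with a prior count of 2, and the genotypes were compared with edgeR 4.0.16 (filterByExpr by genotype, robust quasi-likelihood F-test, R 4.3.3) in 1 fit of all 24 libraries without covariates. P-values were Benjamini-Hochberg adjusted over 17214 genes, called under 0.05. The test was tested on simulated counts. Relations over tumours used log2 CPM, with 100000 permutations, two-sided. The permutations moved tumours across genotypes, so a small p can reflect a genotype difference that both values share. Totals ranged from 31.9 M to 43.8 M reads. RLE size factors, DESeq2 1.42.0, limma-voom (limma 3.58.1), other filters, fewer libraries, the name style as covariate and leaving out each tumour were tried as alternatives.

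Named genes were the 9 members, pathway genes past the threshold (at most 6 a contrast), and the genes most like each member by Pearson r (8 for Gfra2, 3 for each other). The members, lists and contrasts were chosen with earlier results of these data known, and Gfra2 for its level in 61L/L and 61H/H. Promoter windows came from RefSeq (GRCm38.p6), and 6 of 9 members matched. Some listed genes are not reported here.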

Additional observations from a re-analysis of the deposited data

Results flagged for a closer look

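In each of 36 sets (9 genes in 4 genotypes of 6 tumours) the highest and lowest tumour were compared with their nearest neighbour by Dixon's ratio at its 95% critical value, and chance is expected to mark about 1 set in 20. Of the 36 sets 2 were marked, which is near that share. The ratio was taken on CPM and not on the log2 scale. Gdnf in 61R/R was marked for replicate 2 at 33.3 CPM, where the next tumour lay at 15.7 CPM and the gap was 0.729 of the range. Gdnf in 61H/H was marked for replicate 4 at 62.8 CPM, where the next tumour lay at 5.01 CPM and the gap was 0.939 of the range. The same tumour decided the Gdnf differences of 61H/H given above.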

How the results depend on the processing

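No paired analysis was possible because replicate numbers were given in accession order and pair no tumours. Over the 63 differences of the 9 members, 1942 of 2007 values under the alternatives kept their direction and their side of the threshold. For Gfra2 in the contrasts without a test, a value counted among these if it kept its direction and moved by less than the spread within genotypes (0.47). In 61H/H against 61R/R the count of members called (1) became 2 with DESeq2, with at least 1 CPM in at least 6 libraries and with the name style as a covariate, and 0 with limma-voom and in the 18 libraries of 1 name style, and it ran from 0 to 3 when each tumour was left out. Those changes were Gfra3 lost in limma-voom (adjusted p = 0.0919) and Bdnf gained (adjusted p = 0.00593, 0.0491 and 0.0360). Bdnf also passed there without 61K/K replicate 4, 61L/L replicate 1 or 6 or 61H/H replicate 4 or 6. In 61H/H against 61K/K the count (1) became 2, by Gfra1, with DESeq2, limma-voom and the covariate, and ran from 1 to 2, with 2 without 61K/K replicate 6 or 61H/H replicate 3 (Gfra1) or 4 (Gdnf). In 61L/L against 61R/R the count (0) became 1 with DESeq2. For 61L/L and 61H/H together the count (2) fell to 0 in the 18 libraries. Where not stated, the cause was not tested.

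Signs of small values turned. In limma-voom Gdnf became -1.22 (61H/H against 61K/K) and -0.40 (61H/H against 61L/L), and Nrtn 0.35 (61L/L against 61K/K) and 0.0029 (61L/L and 61H/H together). With the covariate Gdnf became -0.22 (61H/H against 61K/K) and Ret -0.0305 (61L/L against 61K/K). Gfra1 in 61L/L against 61R/R became -0.0734 in the 18 libraries. Ntrk2 in 61L/L and 61H/H together became -0.000601 with RLE, -0.000600 with DESeq2, -0.0144 with the stricter filter and -0.0998 in the 18 libraries. Over single omissions Ret ran from -0.0531 to 1.05 and Artn from -0.64 to 0.0304 (61K/K against 61R/R), Gfra1 from -0.0556 to 0.23 (61L/L against 61R/R), Nrtn from -0.91 to 0.0184 (61H/H against 61R/R), and Gdnf from -2.08 to 0.36 (61H/H against 61K/K) and -1.40 to 1.16 (61H/H against 61L/L). In 61L/L against 61K/K Ret ran from -0.0697 to 0.59 and Nrtn from -0.35 to 0.25, and in 61L/L and 61H/H together Ret from -0.53 to 0.0568 and Ntrk2 from -0.0719 to 0.20. Among relations, Gdnf with Ret became -0.0665 without the 2 farthest tumours and -0.0148 within genotypes, Nrtn with Gfra2 0.0667 and 0.0134, and within genotypes Artn with Gfra3 became 0.16 and Gfra2 with Ret 0.15.

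Genes called over the whole table were 348 in 61H/H against 61R/R, with 909 by DESeq2, 683 with the covariate, 189 by limma-voom, 111 in the 18 libraries, 30 in a fit of those genotypes alone and 66 to 1093 over omissions. They were 1612 in 61H/H against 61K/K, with 2452 by DESeq2, 168 in the 18 libraries, 447 in a fit of those genotypes alone and 559 to 2310 over omissions, and 913 for 61L/L and 61H/H together, with 1469, 230 and 466 to 1537. In 61H/H against 61L/L 0 to 5 passed over omissions. Low counts limit Nrtn, Artn, Ret and Bdnf, with as few as 4, 12, 10 and 15 reads in a tumour.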
